A study of Hydra oligactis with 61 samples.

Results

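A pair of homeobox transcripts of *H. oligactis*, 2 of the 23396 in the table, is described across all 16 groups of the study. They are R007809c0g1_i02, whose best protein match is the *C. elegans* homeobox protein vab-15 and whose human ortholog is named MSX2, and R017069c0g1_i02, annotated as a pituitary homeobox (PITX) protein. Below they are called the *vab-15* match and the *PITX* match. Both were taken by identifier, with their levels in these groups already in view, so their levels and fold changes are given as a description and without a test. Both passed the filter on low counts, as did 17676 transcripts in all, and no other row of the table came from the same assembly component as either of them.

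RNA-seq was done on tissue of *H. oligactis* strain Innsbruck 12 kept at 18 °C, with 30 animals pooled per sample and 61 libraries in all. Polyps were bisected at mid-body. Tips were taken from the foot-regenerating upper part (FR, the aboral-facing wound) and from the head-regenerating lower part (HR, the oral-facing wound). This was done at 0 hpa (hours post amputation, 7 libraries each) and at 3, 12, 24 and 48 hpa (3 libraries each). All of these had the vehicle DMSO. Per the methods, animals of 3 hpa and later were in it for 3 h and then washed. In the aFR groups, foot-regenerating tips received 5 µM alsterpaullone (ALP) for 3 h and were taken at 3, 12 and 24 hpa (3 libraries each) and at 48 hpa (4 libraries). ALP is a kinase inhibitor that stabilises β-catenin and so activates Wnt signalling. Uninjured Foot (foot with peduncle) and Head (hypostome with tentacle ring) had 5 libraries each, and these as well as the 0 hpa tips were dipped briefly in DMSO. The labels and the methods differ on the DMSO concentration of some groups. Each FR pool mixed animals that would regrow a foot with animals that would not. Total counts ran from 14.55 to 26.11 M per library, with a median of 18.27 M. All 24 hpa libraries belonged to batch 2, all 3, 12 and 48 hpa libraries to batch 1, and the 0 hpa groups were spread over both. A library is 1 pool, so the spread given is that between pools. The labelled ends carried their markers: the summed level of 4 head markers (*wnt3*, *wnt7*, *wnt9/10c*, *brachyury1*) was 272 to 316 CPM (counts per M counts of the library) in Head and 4.07 to 5.74 CPM in Foot, and that of 4 foot markers (*nk2*, *dlx2*, *gata3*, *tld*) was 371 to 396 CPM in Foot and 5.53 to 9.66 CPM in Head.

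Homeobox genes code for transcription factors that bind DNA through a homeodomain and often mark positions along a body axis. Msx genes, the class to which *vab-15* belongs, act downstream of BMP signals in vertebrates, and in the nematode *vab-15* is needed for the precursors of touch neurons. Pitx genes are paired-like homeobox genes that act downstream of Nodal in the left side of the vertebrate embryo, and in *Hydra* a Pitx gene acts downstream of a Nodal-related signal in the axis of the bud. The polyp is a tube with a Wnt-secreting head organizer at its oral end and a foot at its aboral end, so the levels are given first along this axis.

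The *vab-15* match was close to absent from the mature head and present everywhere else, while the *PITX* match was highest in the head and low in the foot. In Head the *vab-15* match had 1, 2, 3, 4 and 6 counts, which corresponds to 0.0725, 0.152, 0.161, 0.302 and 0.322 CPM. Foot libraries held 11.3, 11.7, 13.2, 13.3 and 14.2 CPM of it. The 2 ends did not overlap, and Foot exceeded Head by 5.90 ± 0.25 on the log2 scale (log2 fold change ± standard error of the edgeR fit), place 189 from the highest among all transcripts tested. For the *PITX* match, Head libraries held 25.8, 26.4, 29.01, 29.8 and 31.3 CPM. Foot libraries held 1.55, 2.06, 2.25, 2.89 and 2.90 CPM, which also did not overlap with Head. The log2 fold change of Foot against Head was -3.60 ± 0.16, place 655 from the lowest. In this comparison 33.8% of all transcripts were higher and 26.5% lower in Foot without overlap, and the median transcript stood at 0.138, so that non-overlap between the 2 ends was common. Fewer cells of a type and less RNA per cell cannot be told apart in such pooled tissue.

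Mid-body tissue held both transcripts, and its 2 faces already differed at 0 hpa. Just below the cut, in HR, the *vab-15* match ranged from 16.3 to 22.2 CPM with a median of 17.7 CPM. Just above the cut, in FR, it ranged from 8.20 to 11.5 CPM with a median of 10.03 CPM. All 7 libraries of the lower face were above all 7 of the upper face, with a log2 fold change of 0.95 ± 0.10. In the opposite direction, the *PITX* match ranged from 2.68 to 4.29 CPM below the cut with a median of 3.54 CPM. Above it, the range was 9.80 to 13.1 CPM and the median 11.4 CPM, again without overlap, at a log2 fold change of -1.75 ± 0.13. The *PITX* match took place 94 from the lowest in this comparison. Among all transcripts, 0.832% were higher and 1.57% lower at the lower face without overlap. The difference was of the same size within each batch: 0.92 and 0.96 for the *vab-15* match and -1.76 and -1.69 for the *PITX* match in batches 1 and 2 (log2 differences of 4 against 4 and of 3 against 3 libraries). Markers of other cells also differed between the faces. Nerve cell markers (neuropeptide precursors and *elavl2*) summed to 39.8 to 49.0 CPM below the cut and 60.5 to 69.9 CPM above it, with 2 of 6 lower by the test below the cut (edgeR's quasi-likelihood test, Benjamini-Hochberg adjusted p under 0.01; 3.82% of all transcripts called). Gland cell markers (digestive proteases) summed to 26.7 to 33.4 CPM and 37.5 to 51.0 CPM, with 1 of 3 lower. The foot markers summed to 28.1 to 45.8 CPM and 13.4 to 19.8 CPM, with 2 of 4 higher. Head markers overlapped in sum (4.05 to 7.95 CPM below the cut and 4.26 to 8.56 CPM above it), with 1 of 4 higher below the cut. Stem cell markers also overlapped (1066 to 1238 CPM and 1025 to 1194 CPM), with 0 of 3 called. The part of these cells in the difference of either homeobox transcript was not tested.

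From aboral to oral, the *PITX* match thus stood at 2.33 ± 0.57 CPM in Foot (mean ± SD, n = 5), 3.41 ± 0.67 CPM below the cut (n = 7), 11.4 ± 1.24 CPM above the cut (n = 7) and 28.5 ± 2.31 CPM in Head (n = 5). Foot and the tissue below the cut overlapped, and the other steps did not. For the step from above the cut to Head, the share of all transcripts without overlap was not counted. The *vab-15* match was not the mirror image of this order. Its mean was 12.71 ± 1.195 CPM in Foot, 18.7 ± 2.34 CPM below the cut, 9.68 ± 1.33 CPM above the cut and 0.202 ± 0.11 CPM in Head, so the highest level was in the lower body column. Foot overlapped with the tissue above the cut (11.3 to 14.2 CPM against 8.20 to 11.5 CPM; log2 fold change 0.39 ± 0.11). Against the tissue below the cut, Head differed by -6.45 ± 0.23 for the *vab-15* match, place 35 from the lowest. For the *PITX* match it differed by 3.06 ± 0.13, place 1298 from the highest. Non-overlap in this last comparison was found for 33.5% of transcripts upward and 33.8% downward.

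**Figure D1:**
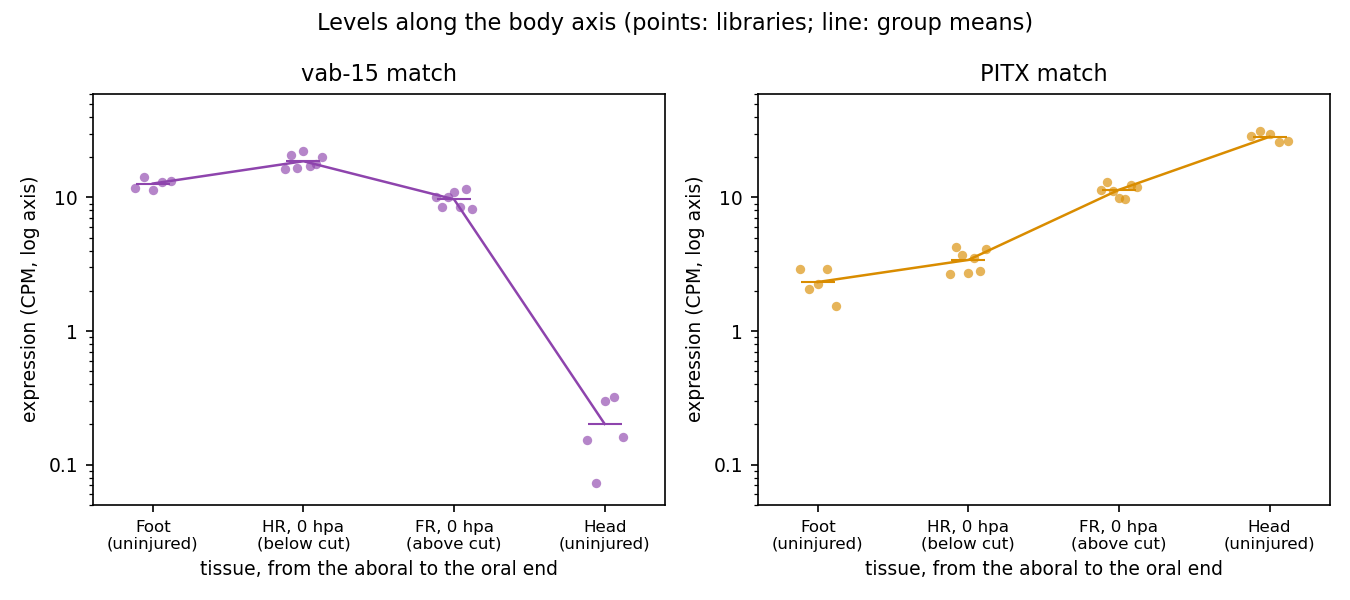
Expression (CPM, log axis) of the vab-15 match and the PITX match in tissue from the aboral to the oral end; each point is a library and the line joins group means. The vab-15 match is highest below the cut and near 0 in Head, whereas the PITX match runs from 2.33 CPM in Foot to 28.5 CPM in Head.

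During head regeneration, both transcripts were first near the level of the lower body column and later on the side of the head level, at different times. The *vab-15* match held its level for a day. It was at 18.4, 22.1 and 24.2 CPM at 3 hpa, at 19.97, 21.3 and 22.6 CPM at 12 hpa and at 18.7, 19.8 and 21.5 CPM at 24 hpa, all of which overlapped with 0 hpa. At 48 hpa the 3 libraries held 2.24, 3.24 and 4.22 CPM. This was below every HR library of an earlier time, with a log2 fold change of -2.52 ± 0.16 against 0 hpa, place 51 from the lowest. The level at 48 hpa was still above Head, by 3.93 ± 0.36 on the log2 scale.

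The *PITX* match stood higher already at 24 hpa, in steps. At 3 hpa HR libraries held 3.23, 3.91 and 4.67 CPM, and at 12 hpa they held 3.75, 5.81 and 6.54 CPM, which in both cases overlapped with 0 hpa. The values at 24 hpa were 11.5, 13.2 and 16.2 CPM, all above the earlier HR libraries, with a log2 fold change of 1.98 ± 0.17 against 0 hpa, place 226 from the highest. The 48 hpa libraries held 27.9, 39.2 and 43.7 CPM, a further step, and 3.44 ± 0.16 above 0 hpa. They overlapped with Head, from which they differed by 0.38 ± 0.15. Against 0 hpa, 17.4% of all transcripts at 24 hpa and 19.5% at 48 hpa were higher without overlap, and 17.4% were lower at 48 hpa. At 24 hpa, then, the *PITX* match had left its 0 hpa range while the *vab-15* match had not. Comparisons of HR at 24 hpa with HR at 0 hpa within batch 2 gave log2 differences of 1.94 and 0.13, and those at 48 hpa within batch 1 gave 3.42 and -2.55, for the *PITX* and the *vab-15* match in that order.

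Markers of other tissue moved with this change at 48 hpa. The summed level of the 4 head markers was 111 to 159 CPM in HR at 48 hpa against 4.05 to 7.95 CPM at 0 hpa, and 4 of 4 passed the test upward. The 4 foot markers summed to 9.12 to 15.8 CPM against 28.1 to 45.8 CPM, with 3 of 4 lower. Nerve cell markers summed to 187 to 225 CPM against 39.8 to 49.0 CPM, with 6 of 6 higher, and 2 of the 6, both Pol-RFamide precursors, had no count in any HR library at 0 hpa. Gland cell markers summed to 63.3 to 80.5 CPM against 26.7 to 33.4 CPM, with 2 of 3 higher and 1 lower. Stem cell markers summed to 848 to 903 CPM against 1066 to 1238 CPM, with 1 of 3 higher and 2 lower. Of all transcripts, 35% passed this test. The part of these cell types in the change of either homeobox transcript was not tested.

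At the foot-regenerating wound, the *vab-15* match was higher from 12 hpa on and the *PITX* match stayed near its starting level. FR libraries held 6.18, 6.79 and 8.36 CPM of the *vab-15* match at 3 hpa, which overlapped with 0 hpa, and 11.6, 13.5 and 13.8 CPM at 12 hpa. At 24 hpa they held 18.8, 19.4 and 21.0 CPM, and at 48 hpa 13.3, 16.7 and 18.5 CPM. From 12 hpa on, every library was above the highest of 0 hpa, with log2 fold changes of 0.40 ± 0.13, 1.07 ± 0.13 and 0.71 ± 0.13 at 12, 24 and 48 hpa. The share of all transcripts that were higher without overlap was 8.42%, 14.4% and 10.7% at these times. Within batches, the log2 differences were 0.38 at 12 hpa, 1.08 at 24 hpa and 0.69 at 48 hpa. The lowest mean of the course, 7.11 ± 1.12 CPM at 3 hpa, differed from 0 hpa by -0.48 ± 0.15. Beside the level at 24 hpa, nerve cell markers summed to 123 to 125 CPM against 60.5 to 69.9 CPM at 0 hpa, with 3 of 6 higher, and stem cell markers to 799 to 808 CPM against 1025 to 1194 CPM, with 2 of 3 lower, in a comparison that called 22.1% of all transcripts. Their part in the level of the *vab-15* match was not tested.

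For the *PITX* match, FR values were 6.72, 9.35 and 11.2 CPM at 3 hpa, 8.67, 8.76 and 9.04 CPM at 12 hpa, 11.2, 11.8 and 13.2 CPM at 24 hpa and 11.2, 11.6 and 13.4 CPM at 48 hpa. The 12 hpa group alone lay wholly outside the 0 hpa range of 9.80 to 13.1 CPM, at a log2 fold change of -0.37 ± 0.16. In that comparison 4.93% of all transcripts were lower without overlap. The log2 fold changes at the other 3 times lay between -0.32 ± 0.17 and 0.08 ± 0.16. At 48 hpa FR tips were 2.37 ± 0.19 above mature Foot for this transcript, and 0.32 ± 0.13 above it for the *vab-15* match.

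**Figure D2:**
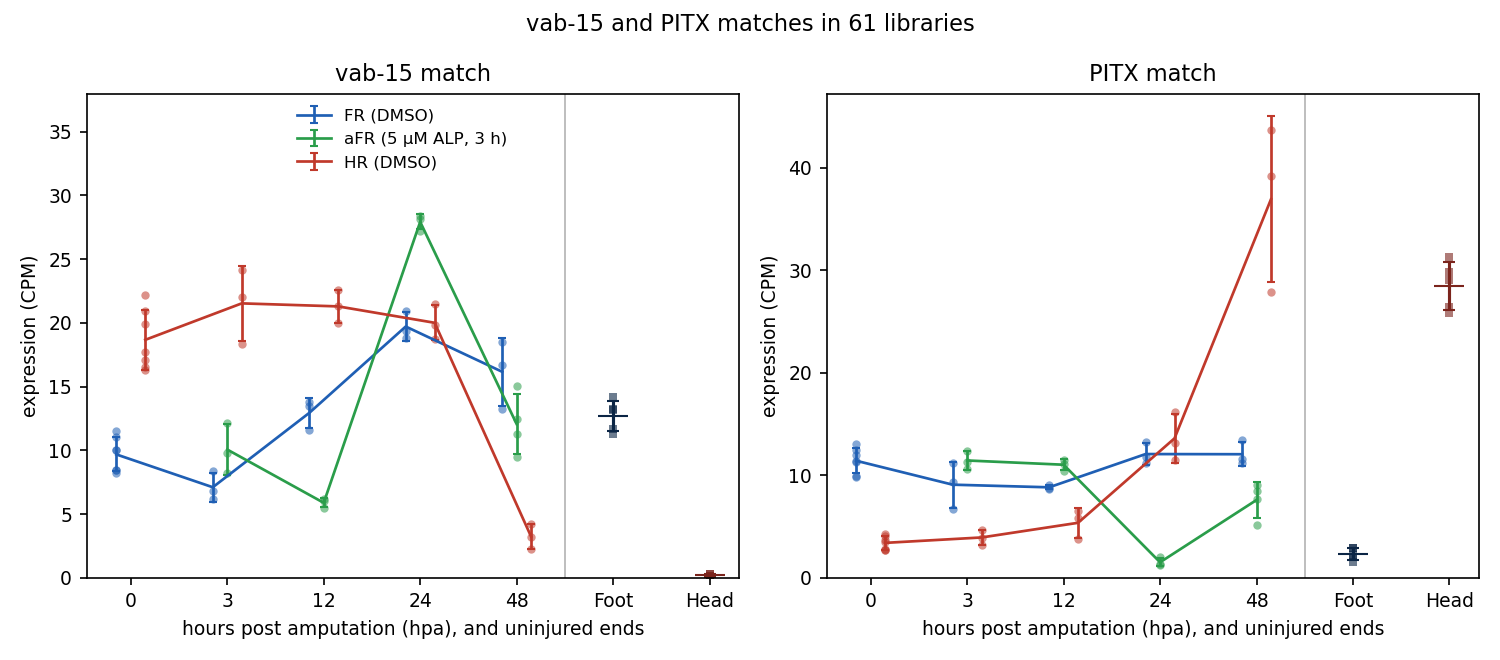
Expression (CPM, linear axes) of both matches against time after amputation (sampled times, evenly spaced) for FR, aFR and HR, and in uninjured Foot and Head; points are libraries and bars are the SD around group means. In HR at 48 hpa the vab-15 match is at 3.23 CPM while the PITX match is at 36.9 CPM, and in aFR at 24 hpa the vab-15 match is at 27.9 CPM while the PITX match is at 1.52 CPM.

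Comparing the 2 wounds at matched times, the order of both transcripts turned over between 12 and 48 hpa. The *vab-15* match was higher at the oral wound at 3 hpa (log2 fold change of HR against FR 1.60 ± 0.15) and at 12 hpa (0.71 ± 0.14), did not differ beyond its error at 24 hpa (0.02 ± 0.13) and was lower at 48 hpa (-2.29 ± 0.17). The *PITX* match went from -1.20 ± 0.20 at 3 hpa and -0.71 ± 0.20 at 12 hpa through 0.16 ± 0.17 at 24 hpa to 1.61 ± 0.17 at 48 hpa. The groups overlapped at 24 hpa and at no other time. Non-overlap in the same direction as the *vab-15* match was found for 10.9%, 16.5% and 17.2% of all transcripts at 3, 12 and 48 hpa, and in the direction of the *PITX* match for 11%, 18.1% and 19.8%. The level shared at 24 hpa was that of HR at 0 hpa for the *vab-15* match, which FR had then reached, and that of FR at 0 hpa for the *PITX* match, which HR had then reached.

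The aFR groups asked how both transcripts stood after brief Wnt activation at the foot-regenerating wound. At 3 hpa the difference from FR was small. The *vab-15* match was at 8.22, 9.82 and 12.2 CPM in aFR, with a log2 fold change of 0.51 ± 0.16, and the *PITX* match at 10.7, 11.3 and 12.4 CPM, with 0.33 ± 0.18. Both overlapped with FR at 3 hpa. By 12 hpa the *vab-15* match had reached 5.48, 6.00 and 6.18 CPM in aFR, all below the FR libraries of that time, and its log2 fold change against FR was -1.15 ± 0.16. At this time the *PITX* match was at 10.4, 11.1 and 11.5 CPM, above FR without overlap by 0.32 ± 0.18. Of all transcripts, 16.3% were lower and 14.4% higher in aFR at 12 hpa without overlap. Nerve cell markers differed at the same time: they summed to 87.4 to 134 CPM in aFR and 77.2 to 82.5 CPM in FR, and 4 of 6 were higher by the test, where 4.01% of all transcripts were called. Gland cell markers summed to 47.5 to 58.1 CPM and 41.3 to 47.4 CPM, with 1 of 3 higher, and of the 4 foot markers 1 was higher and 2 were lower. Head markers summed to 7.306 to 15.9 CPM in aFR and 6.185 to 9.13 CPM in FR, with 1 of 4 higher. The 4 calls among head and foot markers fell to 2 with a required fold of 1.2. The 5 calls among nerve, stem and gland cell markers became 0 without aFR library 1, 1 without FR library 2 and 2 without FR library 1. Their part in the 2 homeobox transcripts was not tested.

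At 24 hpa both transcripts reached an extreme of the whole series in aFR. The *PITX* match had 21, 22 and 37 counts, or 1.33, 1.24 and 1.99 CPM, against 11.2 to 13.2 CPM in FR, a log2 fold change of -2.98 ± 0.23 (7.89-fold lower). This was place 40 from the lowest in this comparison. Its mean was below that of every other group, Foot included, although its range overlapped with Foot. Its *vab-15* counterpart was at 27.3, 28.2 and 28.4 CPM, above every other library of the series, and 0.50 ± 0.13 above FR on the log2 scale. This difference from FR took only place 1563 from the highest among all transcripts. Non-overlap between aFR and FR at 24 hpa was found for 17.7% of all transcripts upward and 18.5% downward. Beside this, the 4 foot markers summed to 35.1 to 38.3 CPM in aFR and 18.3 to 22.6 CPM in FR, with 4 of 4 higher by the test (10.9% of all transcripts called in either direction). The 5 calls among foot and head markers fell to 2 with a required fold of 1.2 and to 2 to 4 with 1 library left out, 2 of them without FR library 3. The head markers summed to 3.79 to 5.62 CPM against 8.20 to 11.4 CPM, with 1 of 4, *brachyury1*, lower. Nerve cell markers (117 to 125 CPM against 123 to 125 CPM) and gland cell markers (43.5 to 51.5 CPM against 47.3 to 48.5 CPM) overlapped between the groups. Stem cell markers summed to 809 to 859 CPM against 799 to 808 CPM. Of these 12 nerve, gland and stem cell markers 1 was called, a Pol-RFamide precursor that was lower in aFR.

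The extreme levels of 24 hpa were not kept. At 48 hpa, aFR libraries held 5.17, 7.65, 8.48 and 9.06 CPM of the *PITX* match, below all FR libraries of 48 hpa (log2 fold change against FR -0.68 ± 0.17). They remained above mature Foot, by 1.69 ± 0.19. The *vab-15* match was at 9.48, 11.3, 12.4 and 15.1 CPM, which overlapped with FR at 48 hpa (-0.42 ± 0.13) and with Foot (-0.10 ± 0.13). In this comparison 13.2% of all transcripts were lower in aFR without overlap. Stem cell markers summed to 1157 to 1227 CPM in aFR against 845 to 957 CPM in FR, with 2 of 3 higher. Foot markers summed to 29.2 to 41.7 CPM against 20.2 to 26.2 CPM, with 3 of 4 higher. Head markers summed to 6.49 to 8.42 CPM against 11.6 to 14.1 CPM, with 1 of 4 lower. Of all transcripts, 16.1% were called. With a required fold of 1.2, the 4 calls among head and foot markers fell to 1. The 2 calls among nerve, stem and gland cell markers fell to 0. The part of these cells in the level of the *PITX* match was not tested. The log2 fold change between aFR and FR moved by -3.30 ± 0.30 from 12 to 24 hpa and by 2.30 ± 0.29 from 24 to 48 hpa for the *PITX* match, and by 1.65 ± 0.21 and -0.93 ± 0.18 for the *vab-15* match. The 24 hpa libraries are of another batch than the 12 and 48 hpa libraries, and each of these fold changes compares groups of 1 batch.

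Ordered by mean level over the 16 groups, the *vab-15* match ran from aFR at 24 hpa (27.9 ± 0.60 CPM, n = 3) down to aFR at 12 hpa (5.89 ± 0.36 CPM), HR at 48 hpa (3.23 ± 0.99 CPM) and Head. The first was separate from the next group, HR at 3 hpa (21.5 ± 2.95 CPM), and the last 3 were separate from each other. All other neighbours in this order overlapped, so that the groups from HR at 3 hpa to aFR at 12 hpa form a continuous range. The *PITX* match ran from HR at 48 hpa (36.9 ± 8.11 CPM) and Head to Foot and aFR at 24 hpa (1.52 ± 0.41 CPM). Only the step from Head to the third group, HR at 24 hpa (13.6 ± 2.37 CPM), had no overlap. For the steps without overlap in either order, the share of all transcripts was not counted. FR at 0, 24 and 48 hpa and aFR at 3 and 12 hpa had means between 11.03 and 12.1 CPM.

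The 2 transcripts can be set against each other per length, with median effective lengths of 741 bases for the *vab-15* match and 1287 bases for the *PITX* match. Per length, the median ratio of *vab-15* to *PITX* counts in a library was 1.53 in FR at 0 hpa, 8.48 in HR at 0 hpa and 8.73 in Foot. It was 36.9 in aFR at 24 hpa, and the 3 libraries there (23.8 to 39.6) were above every other library. At the other end it was 0.144 in HR at 48 hpa and 0.0106 in Head. The *PITX* match was thus the more abundant of the pair per length only in Head, in HR at 48 hpa and, narrowly, in aFR at 12 hpa, where the ratio was 0.904 to 0.964. In FR the ratio stayed between 1.06 and 3.26 in all 19 libraries.

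Across the 61 libraries, which share groups, Pearson's r between the log2 CPM of the 2 transcripts was -0.66, and Spearman's rho was -0.59. Over the 16 group means r was -0.65, and over the 56 libraries outside Head it was -0.64. Within groups, after the group means were taken out, r was -0.27. These values describe the libraries, which are clustered by group, and carry no test.

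**Figure D3:**
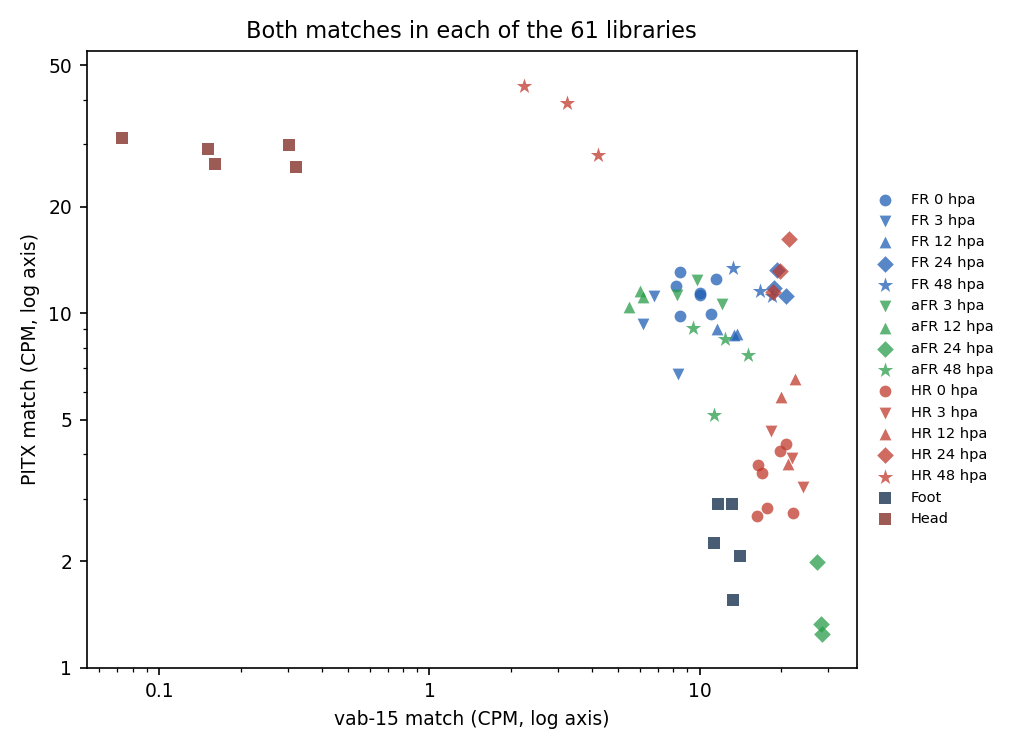
Level of the PITX match against that of the vab-15 match (CPM, both axes log) in each of the 61 libraries, coloured by tissue and shaped by time. Head and HR at 48 hpa lie at the upper left and aFR at 24 hpa at the lower right; most other libraries hold 5 to 30 CPM of the vab-15 match.

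The homeobox family moved widely along the axis and in different directions. Of 17 other homeobox transcripts, listed from the study's annotation with earlier results known, all 17 were tested, and all 17 differed between Foot and Head (8 higher in Foot, 9 lower), in a comparison that called 67.1% of all transcripts. The median of the list was -0.27 on the log2 scale, against 0.138 over all transcripts. A paired-like gene named for the vertebrate retina and a Bar-class gene show the size of these differences on the head side. *RAX2* stood at 4.56 CPM in Foot and 68.9 CPM in Head (log2 fold change -3.91 ± 0.14, adjusted p = 1.23e-30 in edgeR's quasi-likelihood test), and *Barx1* at 1.87 CPM and 25.4 CPM (-3.75 ± 0.14, adjusted p = 2.43e-30).

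Between the 2 faces of the mid-body cut at 0 hpa, where 3.82% of all transcripts were called, 4 of the 17 passed the test. *dmbx1*, a paired-like gene known from the vertebrate midbrain, was at 34.0 CPM below the cut and 10.5 CPM above it (log2 fold change 1.70 ± 0.12, adjusted p = 5.34e-16, edgeR). The foot gene *nk2* was higher below the cut as well (7.89 CPM against 2.70 CPM, 1.54 ± 0.13, adjusted p = 4.39e-14). *vent1*, of a class that acts in BMP signalling in the frog, was lower (0.963 CPM against 2.16 CPM, -1.16 ± 0.20, adjusted p = 1.77e-05). *Rx (SHOX2)* also passed, at 0.392 CPM against 0.035 CPM and with at most 18 counts in a library. The *PITX* match and *vent1* were thus on the side of the upper face. On that of the lower face were the *vab-15* match, *dmbx1*, *nk2* and *Rx (SHOX2)*.

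At 48 hpa, 9 of the 17 differed between HR and FR, 7 higher in HR and 2 lower, where 22.7% of all transcripts were called. *RAX2* was at 25.7 CPM in HR and 0.751 CPM in FR (log2 fold change 5.12 ± 0.23, adjusted p = 1.45e-24, edgeR), and *vent1* at 13.0 CPM and 2.14 CPM (2.58 ± 0.22, adjusted p = 4.05e-14). *HHEX*, known from the vertebrate foregut and blood, was lower in HR (9.996 CPM against 22.8 CPM, -1.20 ± 0.11, adjusted p = 9.85e-13). Against HR at 0 hpa, 10 of the 17 were higher and 3 lower, where 35% of all transcripts were called. Among the 3 that fell was *dmbx1*, from 34.0 CPM to 9.15 CPM (-1.77 ± 0.17, adjusted p = 1.96e-12), the others being *nk2* and *HHEX*; these were named after their values were seen. In FR at 48 hpa against 0 hpa, 5 of the 17 rose, in a comparison with 20% of all transcripts called.

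In aFR against FR, the homeobox transcripts called were 3, 7, 5 and 5 of 17 at 3, 12, 24 and 48 hpa, where 13.1%, 4.01%, 10.9% and 16.1% of all transcripts were called. With 1 library left out at a time they ranged from 1 to 2, 4 to 7, 3 to 5 and 2 to 5, and with a required fold of 1.2 they were 1, 3, 3 and 0. Their direction changed with time for several genes. *dmbx1* was lower in aFR at 12 hpa (5.36 CPM against 11.6 CPM, log2 fold change -1.09 ± 0.22, adjusted p = 0.000577, edgeR) and higher at 24 hpa (37.3 CPM against 17.2 CPM, 1.11 ± 0.18, adjusted p = 2.85e-06). The distal-less gene *dlx2*, a foot marker, was lower at 3 hpa (1.58 CPM against 5.95 CPM, -1.92 ± 0.30, adjusted p = 4.34e-06) and higher at 12 hpa (14.1 CPM against 4.95 CPM, 1.52 ± 0.24, adjusted p = 6.86e-06). *HHEX* was higher at 3 hpa (0.41 ± 0.12, adjusted p = 0.00723) and lower at the later times, by -0.80 ± 0.11 at 24 hpa (adjusted p = 3.95e-07). At 24 hpa, when the *PITX* match was lowest, *dmbx1*, *dll1*, *dlx2* and *nk2* were higher and *HHEX* lower than in FR.

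**Figure D4:**
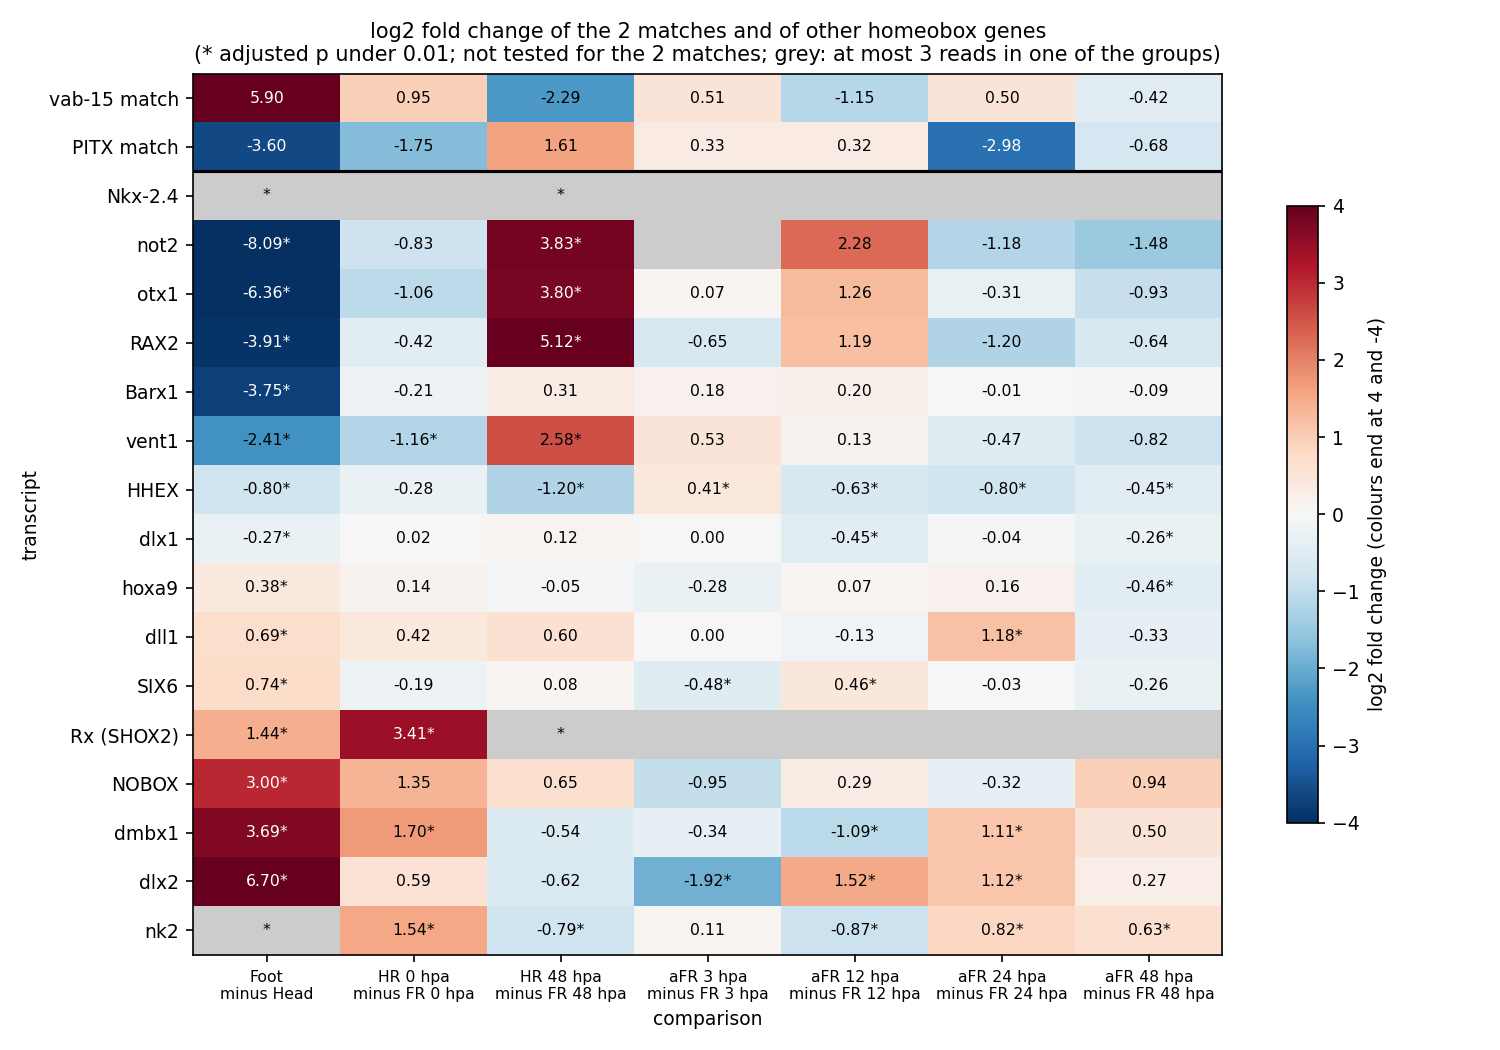
Log2 fold changes of the vab-15 and PITX matches (upper 2 rows) and of other homeobox transcripts, ordered by Foot minus Head, in 7 comparisons; red is higher in the group named first and blue lower, stars mark adjusted p under 0.01 (other transcripts only) and grey cells have at most 3 counts in one of the groups. In the column for aFR minus FR at 24 hpa the PITX match has the lowest value, -2.98.

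The list of TGF-beta pathway genes holds ligands, antagonists and receptors of this pathway. Part of it belongs to the BMP and Nodal families, the signals known to act on Msx and Pitx genes in other animals. Other genes of the list, such as the GDF-8 matches, lie outside these families. Between Foot and Head, 9 of its 13 members were higher in Foot and 2 lower, in the comparison that called 67.1% of all transcripts (median log2 fold change 0.86, against 0.138 over all transcripts). The ligand *BMP-7* was at 20.7 CPM in Foot and 0.239 CPM in Head (6.43 ± 0.37, adjusted p = 3.21e-22, edgeR), and the antagonist *dand5* at 14.98 CPM and 2.23 CPM (2.76 ± 0.14, adjusted p = 2.75e-24). *chordin*, an antagonist of BMPs, was lower in Foot (30.6 CPM against 122 CPM, -2.0 ± 0.10, adjusted p = 1.44e-25). The *nodal* match, given here because of its place upstream of Pitx and not by the rule for named genes, was at 5.82 CPM in Foot and 0.0625 CPM in Head (6.36 ± 0.55, adjusted p = 2.42e-15), the end at which the *PITX* match was low. In mid-body and regenerating tips *nodal* had at most 12 counts in a library.

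In the comparisons that follow, fewer transcripts were called over all, and fewer of the list. At 0 hpa, with 3.82% of all transcripts called, 2 of 13 were higher below the cut, the ligand *gdf-8 (GDF11)* (18.2 CPM against 12.5 CPM, log2 fold change 0.54 ± 0.13, adjusted p = 0.00326, edgeR) and a *gremlin-2* match with at most 17 counts in a library. Between HR and FR at 48 hpa, with 22.7% of all transcripts called, 3 were higher and 3 lower, among them the antagonist *noggin* (13.8 CPM against 1.40 CPM, 3.30 ± 0.22, adjusted p = 8.41e-18) and *gdf-8 (GDF11)* (1.12 CPM against 13.8 CPM, -3.53 ± 0.27, adjusted p = 4.14e-16). Between aFR and FR, 3, 4, 2 and 2 of 13 were called at 3, 12, 24 and 48 hpa, where the shares over all transcripts were 13.1%, 4.01%, 10.9% and 16.1%. With 1 library left out at a time the counts ranged from 1 to 3, 2 to 4, 2 to 2 and 0 to 2, and over other settings from 1 to 3, 2 to 6, 1 to 5 and 0 to 5. At 12 hpa *gdf-8 (GDF11)* was at 3.31 CPM in aFR and 14.99 CPM in FR (-2.17 ± 0.23, adjusted p = 5.26e-10), and at 24 hpa the calls were *noggin* (2.74 CPM against 0.827 CPM, 1.71 ± 0.29, adjusted p = 1.01e-05) and the activin receptor *ACVR2A* (26.9 CPM against 19.7 CPM, 0.45 ± 0.09, adjusted p = 0.000187).

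Of 2339 transcripts with a protein name in the study's tables, those whose fitted log2 group means ran most like the *PITX* match over the 16 groups were *SOX-2* (Pearson's r 0.868), *metabotropic glutamate receptor 3* (0.844), *galactose-3-O-sulfotransferase 3* (0.817), *transmembrane protein 120B* (0.811) and *Ras-like protein family member 11A* (0.80). Among all 17675 other transcripts, named or not, these 5 took places 2, 4, 9, 12 and 19 by r. The SOX-2 match, of a family of stem cell and neural transcription factors, stood at 34.7 CPM in Head, 29 CPM in HR at 48 hpa, 3.4 CPM in aFR at 24 hpa and 1.44 CPM in Foot. By Spearman's rho the head factor *brachyury1* came first of all 17675 other transcripts (0.938), at 151 CPM in Head, 82.4 CPM in HR at 48 hpa, 4.55 CPM in aFR at 24 hpa and 4.75 CPM in Foot. Over the 15 groups without Head, a check added after the values were seen, r of the same 5 transcripts lay between 0.781 and 0.859.

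For the *vab-15* match the 5 named transcripts were *tropomodulin-2*, which caps actin filaments (0.915), *conserved oligomeric Golgi complex subunit 8* (0.886), *RNA polymerase III subunit RPC4* (0.885), *immunoglobulin-binding protein 1b* (0.882) and a match to the bacterial *anti-sigma-I factor RsgI5* (0.879). Among all 17675 other transcripts, named or not, these 5 took places 14, 77, 85, 97 and 116 by r. In 38 transcripts r was over 0.9, and the highest was 0.979. The order of the 5 rested on Head: without it, their r lay between 0.350 and 0.569. None of them was among the first 5 by Spearman's rho, which were *Ret* (0.862), *AT-rich interactive domain-containing protein 3A* (0.859), *glutamyl aminopeptidase* (0.844), *dmbx1* (0.824) and *matrix metalloproteinase-14* (0.785). *AT-rich interactive domain-containing protein 3A* stood at 18.6 CPM in HR and 4.35 CPM in FR at 0 hpa, at 2.45 CPM in aFR at 12 hpa, at 19.4 CPM in aFR and 8.16 CPM in FR at 24 hpa and at 3.83 CPM in HR at 48 hpa. Its r without Head was 0.786 and that of *dmbx1* 0.743.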

How the data were processed

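The values are expected counts per transcript, which the authors estimated with RSEM and Bowtie2 (per the labels, after Trimmomatic 0.39) on a transcriptome assembly and deposited; 5.33% of them were not whole, and all were rounded. FPKM values deposited by the authors for the DMSO regeneration libraries served for effective lengths and as an alternative, with 35 columns used and 4 left out because they could not be matched to libraries. Of 61 count columns, 30 named 1 sample and 31 only a group.

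Transcripts were filtered by group (minimum count 10, minimum total 15), leaving 17676 of 23396, scaled by TMM and fitted in edgeR 4.0.16 (R 4.3.3) with 16 groups and a batch term (0.4 for Foot and Head, whose batch per library is not given in the sources used here). List genes were tested by quasi-likelihood with Benjamini-Hochberg adjustment over all transcripts, at 0.01. Members and lists were chosen with earlier results of these data known. Named genes were the 2 members, up to 4 per list and comparison by p, and the 5 named transcripts most alike each member. The fit was tested on simulated data. Alternatives used DESeq2 1.42.0, sva 3.50.0 and limma 3.58.1. The number of counts limits precision mainly for the *vab-15* match in Head, and RNA amounts are relative to each library's total. Sequences of the 2 transcripts are not used here, and 1 homeobox gene of the list enters the counts but is not reported here.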

Additional observations from a re-analysis of the deposited data

Results flagged for a closer look

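In groups of 4 to 10 libraries, no library stood apart from its group. The gap test was run there on 10 sets of values of the 2 transcripts and marked 0 of them, where chance marks about 1 in 20. Groups of 3 libraries, among them HR at 48 hpa and aFR at 24 hpa, were not tested.

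In several pairs of effects, every library of one group lay on one side of the mean of its reference group and every library of the other on the opposite side. These differences were not tested for the 2 homeobox transcripts, and the share of all transcripts that meet this rule was not counted. The rule does not ask for groups without overlap. Overlap between aFR and FR was found at 3 hpa for both transcripts and at 48 hpa for the *vab-15* match. HR at 12 hpa overlapped with HR at 0 hpa for the *PITX* match. The *vab-15* match changed since 0 hpa by -2.52 in HR and by 0.71 in FR at 48 hpa (log2), and the *PITX* match by 0.67 in HR and -0.37 in FR at 12 hpa. Taken at 3, 12, 24 and 48 hpa in turn, the difference between aFR and FR was 0.51, -1.15, 0.50 and -0.42 for the *vab-15* match. For the *PITX* match it was 0.33, 0.32, -2.98 and -0.68.

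Among the list genes, the change since 0 hpa at 48 hpa differed between HR and FR by the interaction term of the edgeR fit at adjusted p under 0.01, which 15.3% of all transcripts passed. The difference, HR less FR on the log2 scale ± standard error, was 3.74 ± 0.29 for *vent1*, 5.55 ± 0.41 for *RAX2* and 2.71 ± 0.33 for *noggin*. It was 0.48 ± 0.11 for *ACVR2A* and 1.43 ± 0.18 for *RGMA*. The errors were largest for *not2* (4.66 ± 0.89) and *otx1* (4.86 ± 0.84). The difference was -0.93 ± 0.14 for *HHEX*, -1.20 ± 0.34 for *dlx2*, -2.24 ± 0.23 for *dmbx1* and -2.33 ± 0.24 for *nk2*. It was -4.07 ± 0.30 for *gdf-8 (GDF11)*, -1.62 ± 0.34 for *GDF-8 (MSTN)* and -1.38 ± 0.19 for *dand5*.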

How the results depend on the processing

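The values of the 2 homeobox transcripts kept their sign in 306 recomputations with other settings. In 354 without 1 library, those that lost their sign were at most 0.08 in size: FR against its start for the *PITX* match after 24 h (0.07, then -0.01 or 0.00) and 48 h (0.08, then 0.00), and HR against FR at 24 hpa for the *vab-15* match (0.02, then -0.01 or -0.02). Of the 306, 6 moved beyond the spread between libraries, all on the scale of log2(FPKM + 1) in limma and for the *PITX* match. There HR against FR at 0 hpa was -1.43, and HR after 24 h and 48 h was 1.60 and 3.01 above its start. Without 1 library only the *vab-15* match in HR at 48 hpa moved, from -2.52 to -2.79 without library 4. Counts limit the *vab-15* match in Head, and the *PITX* match in aFR at 24 hpa had under 40 per library.

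The counts of called list genes moved by more than 1.5 times in 31 of 228 recomputations; the cause was not tested. A required fold of 1.2 left the following, for homeobox genes, TGF-beta pathway genes, head and foot markers, and nerve, stem and gland cell markers in this order: 1, 1, 1 and 0 between aFR and FR at 3 hpa, then 3, 2, 2 and 3 for the 12 hpa groups, 3, 1, 2 and 0 for the 24 hpa groups, and 0, 0, 1 and 0 for the 48 hpa groups. Under it, 1 TGF-beta gene was called between HR and FR at 0 hpa, as with DESeq2. At adjusted p under 0.05, TGF-beta genes in aFR numbered 4 (24 hpa) or 5 (48 hpa), and without a filter 1 at 48 hpa. A fit of only the 2 groups compared gave 0 TGF-beta genes at 0 hpa. For aFR it gave 1 homeobox gene and 1 head or foot marker at 3 hpa, 1 nerve, stem or gland cell marker at 12 hpa, 5 TGF-beta genes at 24 hpa, and 1 homeobox gene, 0 TGF-beta genes and 2 head or foot markers at 48 hpa. Foot against Head and HR against FR at 48 hpa kept all list counts within 1.5 times.

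Leaving out 1 library, with the filter and dispersion trend of all libraries kept, moved 46 of 220 list counts. In aFR against FR the ranges at 3, 12, 24 and 48 hpa were 1 to 2, 4 to 7, 3 to 5 and 2 to 5 for homeobox genes and 1 to 3, 2 to 4, 2 to 2 and 0 to 2 for TGF-beta genes. They were 1 to 3, 2 to 5, 2 to 4 and 2 to 4 for head and foot markers, and 0 to 2, 0 to 5, 0 to 1 and 2 to 3 for nerve, stem and gland cell markers. The lowest homeobox counts came without FR 1, FR 4, aFR 1 or aFR 3 at 3 hpa, FR 2 at 12 hpa, FR 3 at 24 hpa and FR 1 at 48 hpa. Without aFR 1 at 12 hpa, 2 TGF-beta genes, 2 head and foot markers and 0 of the other markers were called, and without FR 1 at 48 hpa 0 TGF-beta genes. At 0 hpa, TGF-beta genes ranged from 1 to 2, with 1 in the absence of FR 1, 3, 5 or 7 or of HR 4 or 7.

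With a replicate block in the fit of the 2 groups, 1 TGF-beta gene was called at 0 hpa and 5 between aFR and FR at 24 hpa, and no other list count moved. Libraries of the same number varied together little, so numbers were not taken as pairs. At 0 hpa r ran from -0.12 to 0.32, with 2 of 7 closest to their own number. At 24 hpa r ran from 0.00 to 0.02, with 1 of 3 closest between HR and FR and 2 of 3 between aFR and FR. No block was run where numbers are not given for both groups, or between 24 and 0 hpa, where libraries of the same number lie in different batches.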
